A study of Mus musculus with 16 samples.

Results

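The Sprouty and Spred proteins, the phosphatase Dusp6 and the transcription factors Etv4 and Etv5 were followed across brain samples of mouse embryos. The set holds 10 genes (Spry1, Spry2, Spry3, Spry4, Spred1, Spred2, Spred3, Dusp6, Etv4 and Etv5), of which 9 had at least 1 annotated probe in the deposited signal table, 14 probes in all among 45281. Of these, 6 genes (9 probes) were detected on at least 8 of 16 arrays and belong to the 10624 genes tested. The members were chosen by their family and selected on a measured value, the higher signal of Spry3 in HeCo, so the differences of members between genotypes are given as a description without a test.

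The mutant group comprised 8 arrays of HeCo brains and the control group 8 arrays of wild-type brains, all from embryos at embryonic day 18 on a NOR/CD-1 background. HeCo is a mouse line with a spontaneous mutation of the microtubule-associated protein Eml1, and its cortex holds a band of misplaced neurons. The labels give neither the sex of the embryos nor whether samples stem from different animals, so every error below measures the spread between these samples, which may be technical. RNA was hybridised in a single colour to Illumina bead arrays, and values are normalized log2 signals unless deposited signals are named.

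Receptor tyrosine kinases such as the FGF receptors act through Ras, Raf and MEK on the kinase ERK. ERK signalling switches on its own brakes: Sprouty proteins and Spred proteins act near the receptor and Ras, and Dusp6 removes phosphate from ERK. Etv4 and Etv5, ETS factors of the PEA3 group, are transcriptional outputs of FGF signalling, and in the embryonic forebrain several of these genes are used as readouts of it.

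Eml1 checked the labels: its probe ILMN_1214866 passed detection on 0 HeCo arrays and on 8 of 8 wild-type arrays, and ILMN_3137207 passed on 8 of 8 HeCo arrays and on 0 wild-type arrays. Array means of the deposited signal lay between 374.9 and 597.9, and 17694 to 19553 probes were detected per array. Neuronal markers (8 measured of 10 listed), telencephalic markers (5 of 9) and radial glia markers (10 of 11) were detected on all arrays wherever they were measured. Markers of midbrain and hindbrain (10 measured of 12) set 2 libraries apart, with mean log2 signals of 4.90 on HeCo 7 and 5.15 on HeCo 16, against 7.31 to 7.60 on the other 6 HeCo arrays and 6.99 to 7.73 on wild-type arrays. Values without HeCo 7 and HeCo 16 are given for each measured member, and for other genes where they move most. In RNA of whole tissue, fewer cells of a type and less RNA per cell cannot be told apart.

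Promoter letters are shown for Spred1 and Dusp6, because this pair and Spry3 had the highest correlations among members within genotypes (r = 0.54 for Spred1 and Dusp6, not past the adjusted threshold) and RefSeq windows were at hand for both. Each line gives the 250 bases before the annotated start of the gene (GRCm38.p6, plus strand), at chr2:117120821-117121070 for Spred1 and chr10:99262981-99263230 for Dusp6. Capitals mark GGAA on either strand, the core of the letters that ETS factors such as Etv4 and Etv5 recognise.
Spred1: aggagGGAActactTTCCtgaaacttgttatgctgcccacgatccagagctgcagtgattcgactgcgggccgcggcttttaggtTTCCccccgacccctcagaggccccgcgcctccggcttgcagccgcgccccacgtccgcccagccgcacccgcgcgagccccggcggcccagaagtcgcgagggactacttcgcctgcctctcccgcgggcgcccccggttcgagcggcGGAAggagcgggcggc
Dusp6: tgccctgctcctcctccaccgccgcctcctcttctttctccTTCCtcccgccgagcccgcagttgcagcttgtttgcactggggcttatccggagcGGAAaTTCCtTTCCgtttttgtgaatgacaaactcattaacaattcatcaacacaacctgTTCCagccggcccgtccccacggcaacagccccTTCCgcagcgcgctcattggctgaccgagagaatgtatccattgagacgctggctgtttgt
The Spred1 window holds 4 copies and the Dusp6 window 6 copies, and 93.4% of all 32851 windows of this length hold at least 1, with a median of 3. The longer word CCGGAA, which contains GGAA and was searched on both strands, occurs in 12.0% of all windows and in 0 of the 8 windows that 7 members have (Spry1, Spry2, Spred1, Spred2, Spred3, Dusp6 and Etv5). The GGAA core was present in 7 of these 8 windows. Spry3, Spry4 and Etv4 had no entry.

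Among the Sprouty genes, which encode membrane-associated inhibitors of receptor tyrosine kinase signalling, Spry3 was well measured by its only probe (ILMN_2869082), which was detected on all 16 arrays. Its log2 signal had a lowest, median and highest value of 8.36, 8.56 and 8.84 on HeCo arrays, against 7.86, 8.16 and 8.32 on wild-type arrays. All 8 HeCo arrays thus lay above the highest wild-type array, with a gap of a few hundredths between HeCo 7 (8.36) and wild type 3 (8.32). Signals before normalization ran from 343.7 to 765 in HeCo and from 257.4 to 393.7 in wild type, where HeCo 7 and HeCo 14 (349.1) fell within the wild-type range. The mean was 8.60 ± 0.19 in HeCo and 8.10 ± 0.16 in wild type (SD, n = 8 each), a difference of 0.50 (SE 0.09) or 1.41-fold. This is the value behind the choice of the set. As background, 6 of all genes tested were past the limma threshold of an adjusted p under 0.05 (0.0565%), 4 of them higher (0.0377%) and 2 lower in HeCo (0.0188%). Arrays of both groups did not overlap for 12 genes (0.113%), with every HeCo array above every wild-type array for 7 (0.0659%), and Spry3, as 1 of 6 measured members, is among the genes higher in HeCo in these counts. That repeats the value that chose the set and is no test of it. The number of genes past the threshold was 2 without HeCo 5, HeCo 8 or wild type 2 and 3 without wild type 9, and these did not include Spry3, nor did those after scaling arrays to a common median (difference 0.55, SE 0.14).

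The difference of Spry3 was of similar size in every subset of arrays that was tried. It was 0.56 (SE 0.09) without HeCo 7 and HeCo 16, which had 2 of the lower HeCo values (8.36 and 8.50). It was 0.49 and 0.50 within title numbers 1 to 8 and 9 to 16 (SE 0.12 each), and 0.53 (SE 0.12) and 0.47 (SE 0.14) within description numbers 1 to 8 and 9 to 16. Each such run held 4 arrays per genotype, and Spry3 was not past the limma threshold in any of them. Over all alternatives it was past the threshold in 24 of 33. Spry3 lies on the X chromosome of the mouse, and the sexes were not labelled. Xist, the RNA that coats the inactive X chromosome in female cells, was found on 4 HeCo arrays and 6 wild-type arrays. On arrays with Xist, Spry3 ran from 8.36 to 8.82 in HeCo and from 7.86 to 8.32 in wild type. On arrays without it, the range was 8.48 to 8.84 in HeCo and 8.19 to 8.23 in wild type. With the Xist signal as a covariate the difference was 0.49 (SE 0.09).

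**Figure D1:**
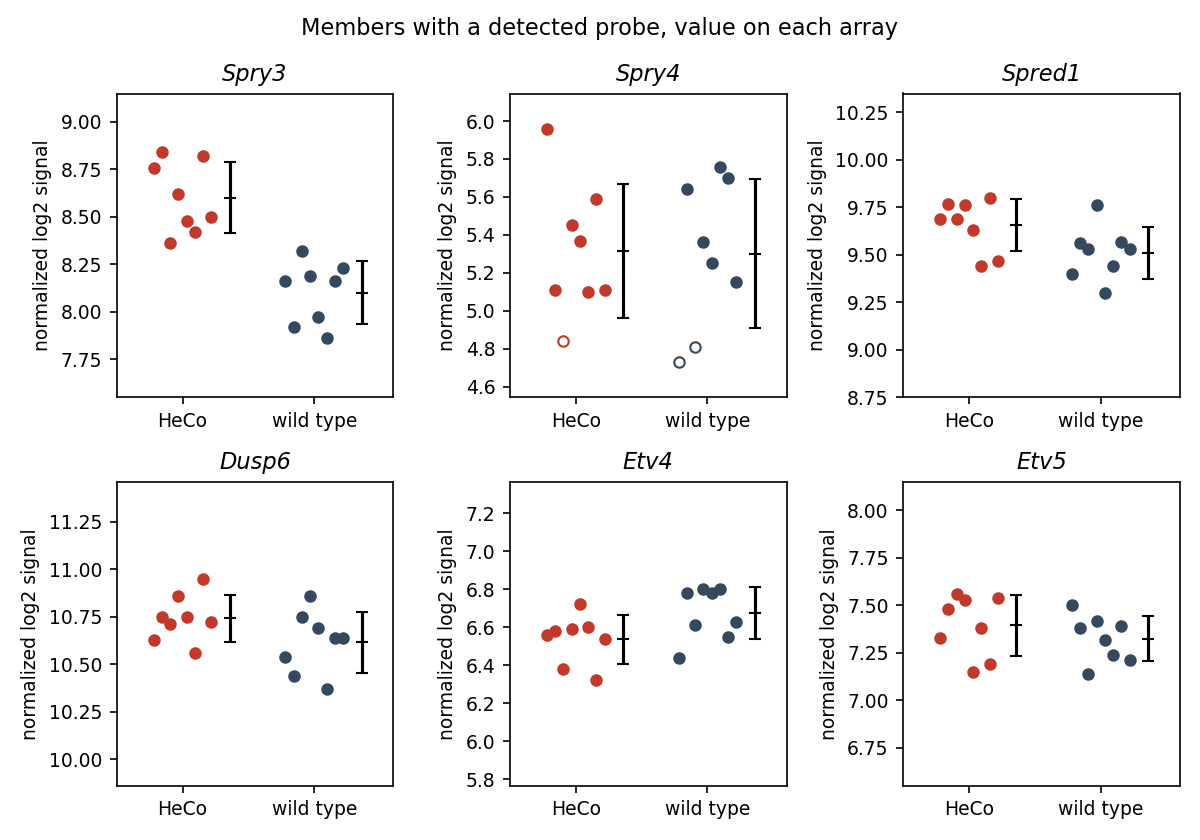
Normalized log2 signal (y axis, the same span in each panel) of the 6 members with a detected probe on 8 HeCo arrays (left) and 8 wild-type arrays (right). Each point is an array, open points mark arrays where the probe was not detected, and bars give mean ± SD. The HeCo arrays of Spry3 (8.36 to 8.84) lie above all wild-type arrays (7.86 to 8.32), and the groups overlap in the other panels.

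The other Sprouty genes were close to the background of the arrays or had no probe. Spry4, an inhibitor of Ras activation induced by FGF signalling, passed detection on 7 HeCo arrays and 6 wild-type arrays. Its lowest, median and highest log2 signals were 4.84, 5.24 and 5.96 in HeCo, against 4.73, 5.30 and 5.76 in wild type. The groups covered nearly the same range, with a difference of 0.02 (SE 0.16), and 0.13 (SE 0.17) without HeCo 7 and HeCo 16. It ran from -0.07 (without HeCo 5) to 0.09 (without HeCo 7) with 1 array left out at a time. This difference changed sign between runs of arrays, with -0.24 (SE 0.15) and 0.28 (SE 0.25) within the lower and higher description numbers and 0.21 (SE 0.25) and -0.17 (SE 0.17) within the lower and higher title numbers. The spread of Spry4 within a genotype (SD 0.373) exceeded that of 97.8% of the genes tested, whose median was 0.181. The probe of Spry2, the best studied member of the family, was detected on 0 of 16 arrays, with log2 signals of 4.31 to 4.52 in HeCo and 4.29 to 4.47 in wild type, so no difference is given. Spry1 was not analysed here.

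The Spred proteins share the cysteine-rich Sprouty domain and carry an EVH1 domain, and Spred1 brings the Ras inhibitor neurofibromin to the membrane. Spred1 was detected on all 16 arrays. Its lowest, median and highest log2 signals were 9.44, 9.69 and 9.80 in HeCo, against 9.30, 9.53 and 9.76 in wild type. Most of both ranges overlapped (9.44 to 9.76), with 3 HeCo arrays above the highest wild-type array and 6 above the wild-type mean. Of these, HeCo 8 exceeded wild type 4 by less than the printed digits (9.76 each). The difference was 0.14 (SE 0.07), and 0.17 (SE 0.08) without HeCo 7 and HeCo 16. Spred2, which also restrains Ras signalling, had 3 probes, detected on 5, 3 and 0 of 16 arrays. The brightest of them (ILMN_2590010) passed detection on 2 HeCo and 3 wild-type arrays, with log2 signals of 4.68 to 5.36 in HeCo and 4.77 to 5.32 in wild type. Spred3 passed on 1 HeCo and 1 wild-type array, with log2 signals of 4.58 to 5.07 in HeCo and 4.53 to 5.11 in wild type. At these signals a difference in Spred2 or Spred3 was not detectable.

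Dusp6, the cytoplasmic phosphatase of ERK, was the member with the most probes above background (3). For the brightest (ILMN_2925711), the lowest, median and highest log2 signals were 10.56, 10.73 and 10.95 in HeCo, against 10.37, 10.64 and 10.86 in wild type. Both groups overlapped over most of their range, and HeCo 15 and HeCo 8 had the highest HeCo values (10.95 and 10.86). The difference was 0.12 (SE 0.07), and 0.13 (SE 0.08) without HeCo 7 and HeCo 16. The dimmer probe ILMN_1248537 averaged 6.16 ± 0.22 in HeCo and 6.16 ± 0.24 in wild type (SD, n = 8 each). The dimmest (ILMN_2701321) passed detection on 8 HeCo and 6 wild-type arrays and differed by 0.12 (SE 0.13). The mean over the 3 probes differed by 0.08 (SE 0.08).

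Both PEA3 factors were detected on every array. Etv4, which is induced by FGF signals in many embryonic tissues, had lowest, median and highest log2 signals of 6.32, 6.57 and 6.72 in HeCo, against 6.44, 6.70 and 6.80 in wild type. It was the only measured member with a lower mean in HeCo (difference -0.14, SE 0.08), and 2 HeCo arrays (HeCo 15 at 6.32 and HeCo 7 at 6.38) lay below the lowest wild-type array. The difference was -0.11 (SE 0.09) without HeCo 7 and HeCo 16, -0.08 (SE 0.09) after scaling arrays to a common median and -0.08 (SE 0.05) without background correction. Etv5, which is expressed in neural progenitors and glia, had 7.15, 7.43 and 7.56 in HeCo, against 7.14, 7.35 and 7.50 in wild type (probe ILMN_1235329). Those ranges nearly coincided, with a difference of 0.07 (SE 0.08). The second probe (ILMN_2938047) differed by 0.10 (SE 0.08). The brighter probe differed by 0.02 (SE 0.08) without HeCo 7 and HeCo 16, by 0.11 without HeCo 13, and within the higher description numbers by -0.02 (SE 0.14).

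**Figure D2:**
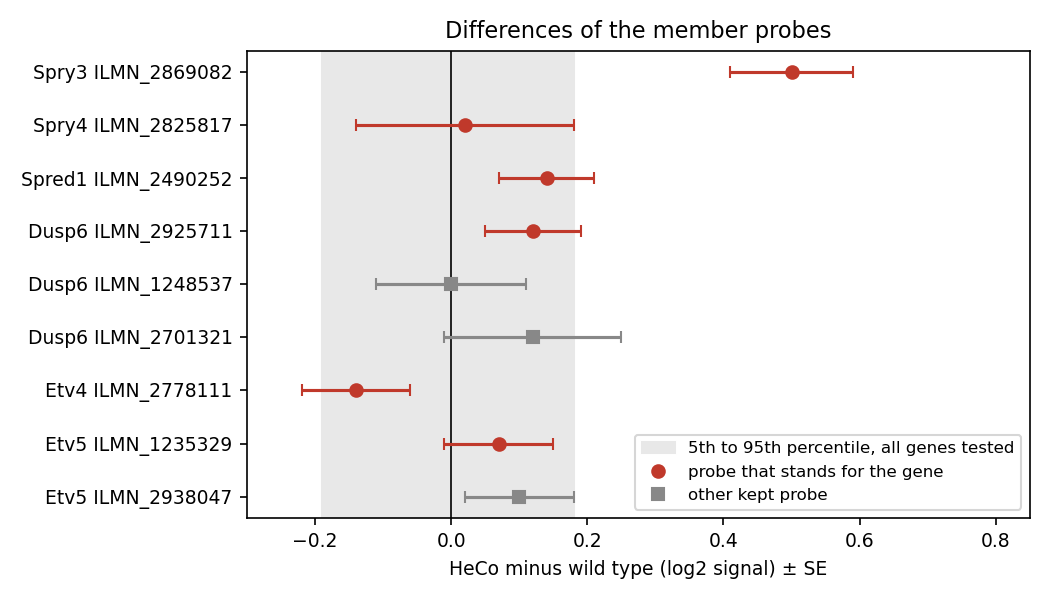
Difference between HeCo and wild type in normalized log2 signal (x axis, HeCo minus wild type, bars ± SE from limma) for the 9 detected probes of the members, 8 arrays per group. The grey band spans the 5th to 95th percentile of all genes tested (-0.19 to 0.18). The Spry3 probe (0.50) lies outside this band and the other probes lie inside it.

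The rest of the pathway was taken from 9 lists of genes ordered by role, which together name 144 genes, 95 of them measured. Those past the limma threshold numbered 0 of 95 in either direction (background 0.0565%), with 16 at an unadjusted p under 0.05 (16.8%, against 749 of 10624 genes or 7.05%). The differences were positive for 48 and negative for 47, with a median of 0.00, against a median of -0.005 over all genes tested. These lists were chosen with earlier results of the data known, and the count was also 0 without HeCo 7 and HeCo 16.

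FGF ligands and their receptors had differences near 0. Of 18 ligands 7 were measured, with differences of -0.10 to 0.07 and a median of -0.02. Fgf22, a ligand known from synapse formation, had -0.10 (SE 0.11, limma adjusted p = 0.862), and Fgf10, known for its part in the early cortical progenitors, had 0.07 (SE 0.10, limma adjusted p = 0.913, and 0.11 without HeCo 7 and HeCo 16). With 1 array left out at a time, Fgf22 ran from -0.14 to -0.05 (without wild type 2; -0.06 without wild type 4). Fgf10 ran from 0.01 (without HeCo 15 or wild type 9) to 0.12 (without wild type 4; 0.11 without wild type 11). Of 12 receptors and docking proteins 8 were measured, with a median of 0.00. Fgfrl1, a receptor without a kinase domain, had -0.17 (SE 0.09, limma adjusted p = 0.735; -0.11 without wild type 10), and the adhesion protein Flrt3, a partner of FGF receptors, had 0.14 (SE 0.12, limma adjusted p = 0.843). Flrt3 ran from 0.06 (without wild type 10) to 0.19 (without HeCo 14) with 1 array left out, and was 0.08 without HeCo 15 and 0.09 without HeCo 6. Neither list of 7 and 8 measured genes had a member at an unadjusted p under 0.05 (7.05% of all genes).

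Other receptor tyrosine kinases had the largest single difference. Of 18 genes 12 were measured, 3 with a positive and 9 with a negative difference, and 3 at an unadjusted p under 0.05 (25%, against 7.05% of all genes). Ret, the receptor subunit for GDNF family ligands, averaged 6.98 ± 0.46 in HeCo and 7.57 ± 0.45 in wild type (SD, n = 8 each; difference -0.58, SE 0.19, limma adjusted p = 0.540), and its second probe gave -0.59 (SE 0.18). Ret lay under its wild-type average on each of 8 HeCo arrays, and the difference was -0.35 (SE 0.16, limma adjusted p = 0.884) without HeCo 7 and HeCo 16. It was -0.27 (SE 0.24) within title numbers 1 to 8 and -0.90 (SE 0.22) within title numbers 9 to 16. Pdgfra, the PDGF receptor of oligodendrocyte precursors, had 0.23 (SE 0.10, limma adjusted p = 0.692). Ligands of these receptors (14 measured of 20, 2 or 14.3% at an unadjusted p under 0.05) had a median of 0.03. The growth factor Igf1 had 0.31 (SE 0.11, limma adjusted p = 0.579), with 0.13 (SE 0.10) for its second probe. The neurotrophin Bdnf had -0.25 (SE 0.10, limma adjusted p = 0.673), with 0.02 (SE 0.09) for its second probe. Without HeCo 7 and HeCo 16 the brighter Bdnf probe had -0.13 (SE 0.09, limma adjusted p = 0.886).

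Along the cascade from Ras to ERK, 14 of 26 genes were measured, with a median of 0.03. At an unadjusted p under 0.05 there were 2 (14.3%, against 7.05% of all genes). The adaptor Grb2, which links receptors to Ras activation, had -0.28 (SE 0.12, limma adjusted p = 0.692), and the Ras GTPase-activating protein Rasa2 had 0.21 (SE 0.09, limma adjusted p = 0.692). Grb2 was dim, with means of 5.35 in HeCo and 5.63 in wild type, and had -0.12 (SE 0.05) without background correction. Its difference was -0.12 (SE 0.15) within title numbers 1 to 8 and -0.43 (SE 0.17) within 9 to 16. Dual-specificity phosphatases other than Dusp6 (9 measured of 10, 2 or 22.2% at an unadjusted p under 0.05) had a median of -0.03. The nuclear phosphatase Dusp2 had -0.23 (SE 0.10, limma adjusted p = 0.673) and Dusp8 had -0.16 (SE 0.07, limma adjusted p = 0.692), and both were under their wild-type average on 8 of 8 HeCo arrays. Their dimmer probes gave -0.10 (SE 0.09) for Dusp2 and -0.10 (SE 0.10) for Dusp8. Within title numbers 1 to 8 the brighter probes had -0.04 (SE 0.12) for Dusp2 and -0.06 (SE 0.10) for Dusp8. Within title numbers 9 to 16 these were -0.42 (SE 0.13) and -0.27 (SE 0.10). Other feedback inhibitors (8 measured of 12, 0 at an unadjusted p under 0.05) had a median of 0.00, led by the cytokine signalling inhibitor Socs3 (0.15, SE 0.08, limma adjusted p = 0.749) and Phlda1 (-0.10, SE 0.08, limma adjusted p = 0.843). Phlda1 was -0.05 without wild type 12, and Socs3 was 0.10 without HeCo 7 and HeCo 16.

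Partners of Sprouty proteins had a median of 0.02 over 11 measured of 12, with 2 at an unadjusted p under 0.05 (18.2%, against 7.05% of all genes). Caveolin 1 (Cav1), a membrane scaffold that binds Sproutys, had 0.26 (SE 0.09, limma adjusted p = 0.612), and the prolyl hydroxylase Egln3 had 0.21 (SE 0.08, limma adjusted p = 0.629). Both exceeded their wild-type average on 8 of 8 HeCo arrays. Transcription factors and early genes downstream of ERK, not all of them induced by it (12 measured of 16), had a median of 0.04. Their range was the widest beside Ret, from -0.34 to 0.42. At an unadjusted p under 0.05 there were 5 of 12 (41.7%, against 7.05% of all genes), and 0 passed the adjusted threshold. Etv1, the third PEA3 factor and a marker of layer 5 neurons, had 0.42 (SE 0.10, limma adjusted p = 0.234), with 0.31 (SE 0.12) and 0.15 (SE 0.13) for its other probes. The stress-inducible early gene Ier3 had -0.34 (SE 0.10, limma adjusted p = 0.376). The early gene Egr1 was as far from 0 in the other direction (0.37, SE 0.10, limma adjusted p = 0.376). Also at an unadjusted p under 0.05 were Fosl2 (0.24, SE 0.10) and the dim Junb (-0.26, SE 0.11), so the directions were mixed. The 3 PEA3 genes therefore had differences of 0.42 (Etv1), -0.14 (Etv4) and 0.07 (Etv5), without a test among them.

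**Figure D3:**
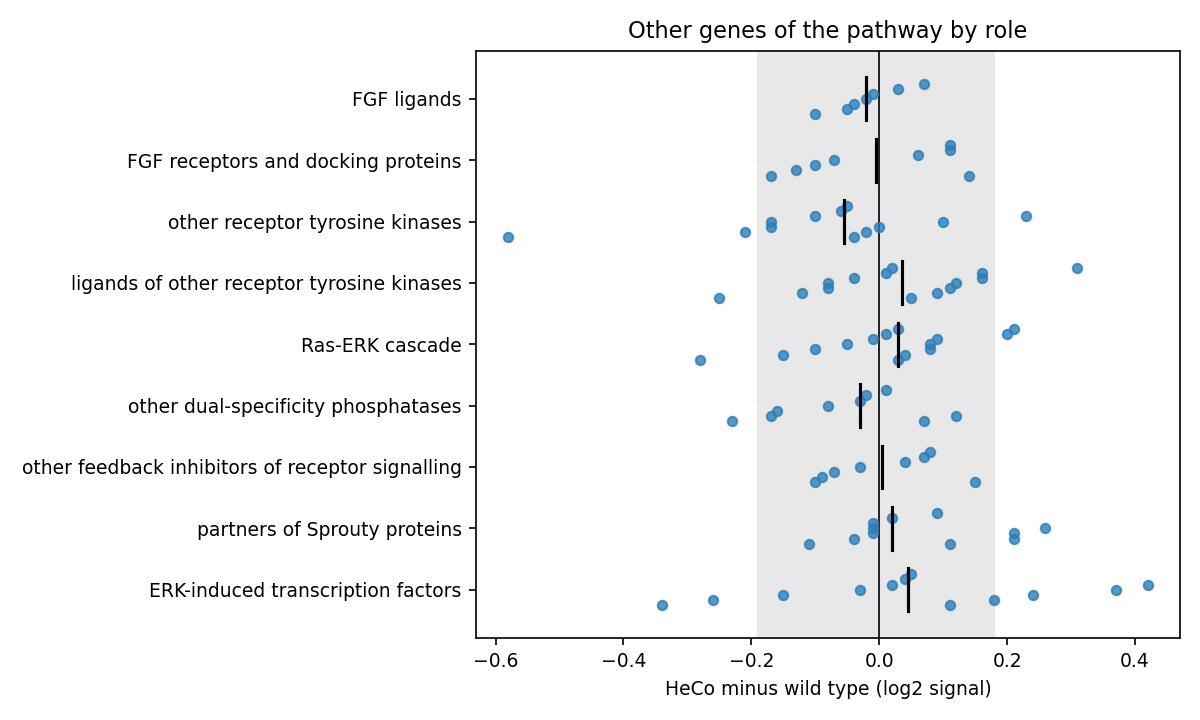
Difference between HeCo and wild type in normalized log2 signal (x axis, HeCo minus wild type) for the 95 measured genes of the 9 pathway lists (rows). Each point is a gene, black bars are list medians (-0.05 to 0.04), and the grey band spans the 5th to 95th percentile of all genes tested. No point is past the limma threshold, the lowest is Ret (-0.58) and the highest Etv1 (0.42).

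Whether the members rise and fall together can be asked without the contrast between genotypes, by taking the genotype mean off each array. Over the 6 measured members and 16 arrays there are 15 pairs, 5 with a positive correlation. Spry3, Spred1 and Dusp6 had the 3 highest values, and none of the 15 pairs passed after Benjamini-Hochberg adjustment (two-sided permutation test within genotype, 100000 resamples), with 3 at an unadjusted p under 0.05. Spry3 and Dusp6 had Pearson's r = 0.59 (permutation p = 0.0204, adjusted p = 0.205) and Spearman's rho = 0.54 (permutation p = 0.0329, adjusted p = 0.445). The value was 0.51 without HeCo 7 and wild type 10, the arrays farthest from the median of Spry3. Spry3 and Spred1 had r = 0.53 (permutation p = 0.0410, adjusted p = 0.205) and rho = 0.46 (permutation p = 0.0895, adjusted p = 0.448), and r = 0.62 without the same arrays. Spred1 and Dusp6 had r = 0.54 (permutation p = 0.0392, adjusted p = 0.205) and rho = 0.49 (permutation p = 0.0593, adjusted p = 0.445), and r = 0.61 without HeCo 14 and wild type 9. The remaining pairs lay between -0.38 (Spry3 and Etv4) and 0.36 (Spry4 and Etv4). Without HeCo 7 and HeCo 16, Spry3 and Etv4 had r = -0.62 (permutation p = 0.0250, adjusted p = 0.160), as far from 0 as Spry3 and Dusp6 (r = 0.62, permutation p = 0.0261, adjusted p = 0.160), Spry3 and Spred1 had 0.58 and Spred1 and Dusp6 0.57.

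Those 3 correlations were positive in each genotype, but other genes had as high values. Spry3 and Dusp6 had r = 0.46 over HeCo arrays and 0.72 over wild-type arrays. For Spry3 and Spred1 these were 0.66 in HeCo and 0.39 in wild type, and for Spred1 and Dusp6 0.70 in HeCo and 0.42 in wild type. Within runs of 8 arrays by title or description number, r ranged from 0.40 to 0.79 for Spry3 and Dusp6, from 0.10 to 0.80 for Spry3 and Spred1, and from 0.26 to 0.80 for Spred1 and Dusp6. By r with Spry3, Dusp6 ranked 675 among 10622 genes and Spred1 ranked 989. Against the brightness of the array, none of the 3 genes passed: the mean deposited signal had r = 0.48 with Spry3 (permutation p = 0.0699, adjusted p = 0.274), 0.56 with Dusp6 (permutation p = 0.0135, adjusted p = 0.135) and 0.32 with Spred1 (permutation p = 0.247, adjusted p = 0.419). Without the 2 arrays farthest from the median brightness these were 0.32 for Spry3, 0.28 for Dusp6 and -0.07 for Spred1, and the part of brightness in the correlations was not tested. Scaling arrays to a common median in place of quantile normalization gave r = 0.86, 0.86 and 0.87 for Spry3 with Spred1, Spry3 with Dusp6 and Spred1 with Dusp6 (permutation adjusted p = 0.00113, 0.00113 and 0.0012). Without HeCo 15 and wild type 10 the pairs of Spry3 had 0.74 (Spred1) and 0.71 (Dusp6). Spred1 and Dusp6 had 0.73 without HeCo 14 and HeCo 15. All other pairs of members rose under this scaling too, and no rank among all genes was taken under it, so these values do not set the 3 genes apart.

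Probes of the same gene were compared in the same way. The brightest and second brightest Dusp6 probes had r = 0.55 (permutation p = 0.0372, adjusted p = 0.149 over 4 pairs of probes), the other pairs of Dusp6 probes 0.21 and 0.09, and the Etv5 probes 0.32 (permutation p = 0.249, adjusted p = 0.498). The SD within a genotype was 0.134 to 0.144 for Spred1, Dusp6, Etv4 and Etv5, below the median of all genes (0.181).

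**Figure D4:**
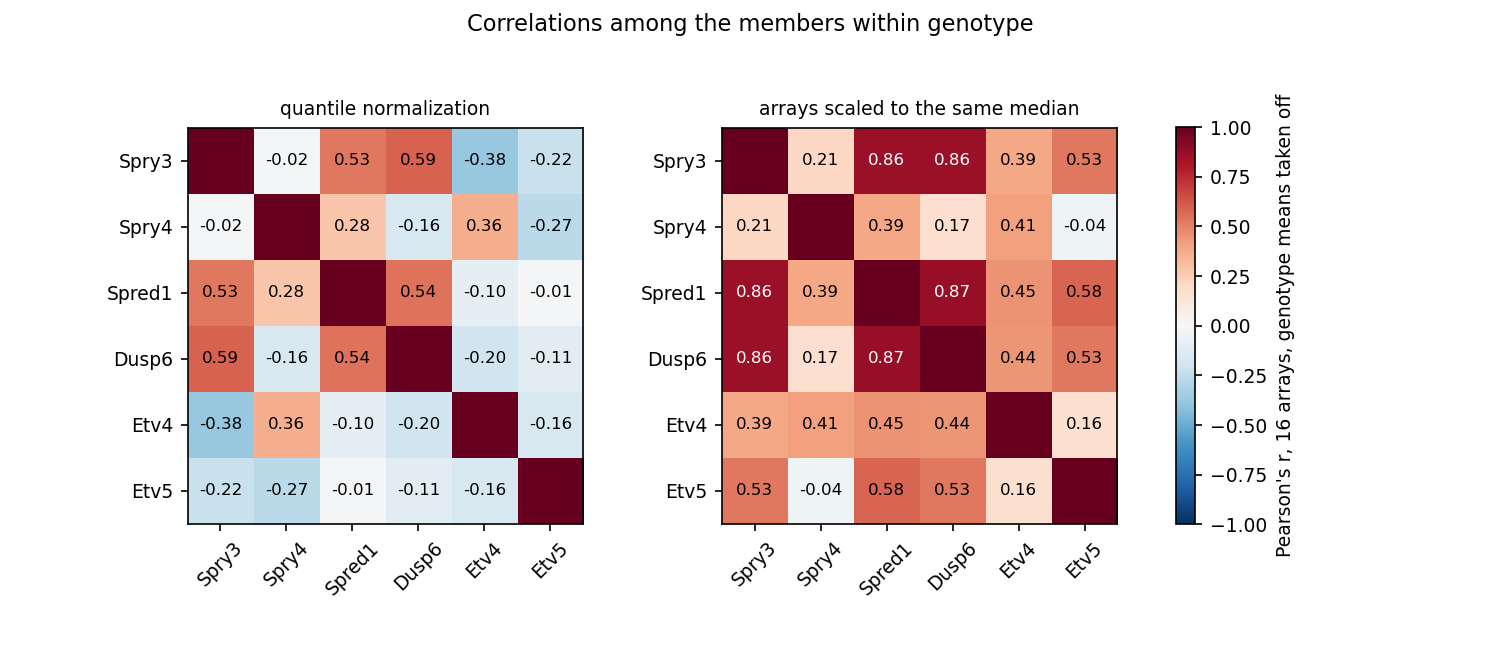
Pearson's r between the 6 measured members over 16 arrays with genotype means taken off, for quantile-normalized signals (left) and arrays scaled to a common median (right); colour runs from -1 (blue) to 1 (red). Spry3, Spred1 and Dusp6 form the 3 highest pairs in both panels (0.53 to 0.59 and 0.86 to 0.87), while the values of Etv4 and Etv5 with them change sign.

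The genes most like Spry3, Spry4, Dusp6, Etv4 and Etv5 were found by the same measure among 10617 genes outside the set (Spred1 was not searched), and since each is the highest of so many, no p is given. For Spry3 they were Ywhab (r = 0.89, rho = 0.93), Abat (0.87, 0.82) and Mib1 (0.87, 0.81), for Spry4 Arl14epl (0.83, 0.74), Shisa4 (0.82, 0.85) and Acat1 (0.81, 0.84). For Dusp6 they were Pkp2 (r = 0.83, rho = 0.80), Nkapd1 (0.83, 0.71) and Igfbp5 (0.82, 0.77). For Etv4 they were Hexa (r = 0.92, rho = 0.87), Rasgrp2 (0.82, 0.89) and Gas6 (0.82, 0.72), and for Etv5 Serbp1 (0.88, 0.89), Masp2 (0.81, 0.82) and Ddx39b (0.77, 0.74). Of the 3 genes most like Spry3, Mib1 had a difference between genotypes of 0.24 (SE 0.09), Ywhab 0.05 (SE 0.08) and Abat 0.03 (SE 0.09).

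Markers of radial glia, oligodendrocyte precursors, telencephalon, and midbrain and hindbrain, and the mean deposited signal, were set beside the members in the same way. This gave 30 relations of 6 members to 5 measures of the array. One of them (1 of 30) passed: Spred1 rose and fell with markers of oligodendrocyte precursors, with r = 0.84 (permutation p = 0.00026, adjusted p = 0.0078) and rho = 0.77 (permutation p = 0.00124, adjusted p = 0.0372). The value was 0.70 without HeCo 14 and wild type 4, the arrays farthest from the median of the markers, 0.84 without HeCo 7 and HeCo 16, and 0.72 to 0.92 within runs of 8 arrays by title or description number. Of the 6 measured markers, Sox10 (0.84) and Pdgfra (0.80) had the highest r with Spred1 (Pdgfra is also on the list of other receptor tyrosine kinases), and Cspg4 the lowest (0.29). Gpr17 (0.51), Olig1 (0.49) and Lhfpl3 (0.45) lay between them, below Dusp6 with Spred1 (0.54). Among single genes, 13 of 10622 had an r with Spred1 as high as the mean of the 6 markers. A mean of several genes and a single gene are unlike measures, so this is no rank of the markers themselves. The mean log2 signal of the list ran from 8.34 to 8.74 in HeCo and from 8.39 to 8.83 in wild type, a difference of 0.08, with all 6 markers detected on every array and 0 past the limma threshold between genotypes. Neuronal, endothelial, meningeal and red blood cell markers were left out of these 30 relations, so whether the relation is particular to precursors was not tested. Neuronal markers went with Spred1 on many of the same arrays. Like Spred1, they had their lowest HeCo means on HeCo 16 (11.12) and HeCo 14 (11.18) and their highest on HeCo 6 and HeCo 15 (11.38 each). Their highest wild-type mean was also on the same array, wild type 4 (11.40). Their lowest was on wild type 3 (11.22), against 11.23 on wild type 9, where Spred1 was lowest. The relation of Spred1 is therefore not shown to be one with precursors alone. Spry4 had r = -0.64 with radial glia markers (permutation p = 0.00585, adjusted p = 0.0878; rho = -0.61, permutation p = 0.0119, adjusted p = 0.179), which did not pass.

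**Figure D5:**
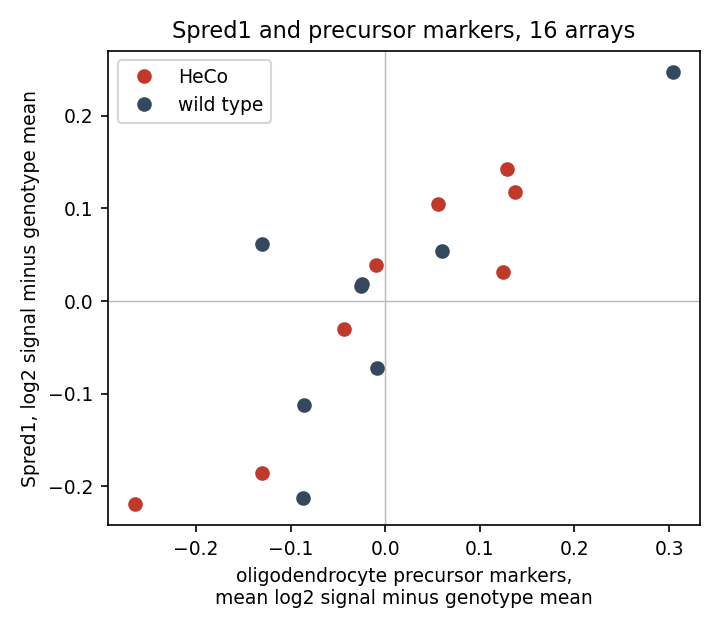
Spred1 log2 signal (y axis) against the mean log2 signal of 6 oligodendrocyte precursor markers (x axis), each minus its genotype mean, on 8 HeCo arrays and 8 wild-type arrays (points, by colour). Points of both genotypes run along the same diagonal (r = 0.84).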

How the data were processed

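Total RNA of brain was amplified, labelled with biotin and hybridised, per the labels' protocols. The deposited table holds probe signals as intensities on a linear scale, with no normalization by the authors visible in the values, and a detection p-value for each deposited signal. The submitters' processing notes name GenomeStudio. A second deposited table of intensities matched a quantile normalization of the signals to within 0.004741 on the log2 scale (column medians 85.16 to 85.21, 16 of 16 columns best with their own array) and served as an alternative.

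In R 4.3.3 with limma 3.58.1, neqc corrected the background from the detection p-values (offset 16) and quantile-normalized. Probes with detection p under 0.05 on at least 8 arrays were kept (18532). Symbols came from the platform annotation (34885 probes with 1 symbol, 18 with several, 10378 with none), updated by Entrez identifier for 34807. The brightest kept probe stood for a gene. The genotypes were compared with lmFit and trended eBayes, and Benjamini-Hochberg adjustment ran over 10624 genes (threshold 0.05). Differences are HeCo minus wild type, and an offset shrinks those of dim genes. Correlations were computed in Python 3.11.15 with numpy 2.4.6, and plots drawn with matplotlib 3.10.9. Both steps were tested on simulated data.

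Members, pathway lists and marker lists were chosen with earlier results of these data known. Named genes are all members, of each pathway list those past the threshold (at most 4) or the 2 with the smallest p, and the 3 genes most like Spry3, Spry4, Dusp6, Etv4 and Etv5. Egr1, Fosl2 and Junb are given in addition and were not followed over the alternatives. The mean log2 signals of the remaining marker lists follow. Neuronal markers ran from 11.12 to 11.38 in HeCo and from 11.22 to 11.40 in wild type. Radial glia markers ran from 8.96 to 9.26 in HeCo and from 9.09 to 9.24 in wild type. Telencephalic markers ran from 8.14 to 8.73 in HeCo and from 7.99 to 8.33 in wild type. Endothelial markers ran from 7.63 to 7.92 in HeCo and from 7.53 to 7.89 in wild type. Meningeal markers ran from 8.31 to 8.57 in HeCo and from 7.91 to 8.60 in wild type. Red blood cell markers ran from 12.34 to 12.70 in HeCo and from 12.30 to 12.69 in wild type, and 0 markers passed the limma threshold. The number of arrays limits the precision. Alternatives varied background, scaling, filter, probe choice, weights, blocks and samples.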

Additional observations from a re-analysis of the deposited data

How the results depend on the processing

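Differences of the 6 measured members moved by less than the SD within a genotype in all 197 values from the alternatives, and Spry3 lay between 0.42 and 0.56 over 33 of them. For the members other than Spry3 this SD (0.134 for Etv4 to 0.373 for Spry4) was near or above the difference itself. A difference could therefore vanish or change sign within it, so the count does not show that these differences are stable. Spry4 ran from -0.24 to 0.28 and Etv5 from -0.02 to 0.16. The number of pathway genes past the threshold was 0 in all alternatives. The number of all genes past it was 6, and 10 with the mean over probes, 2 within description numbers 1 to 8 and 1 within 9 to 16, 1 within title numbers 1 to 8 and 2 within 9 to 16, and 2 to 7 with each array left out in turn. Of the differences of named pathway genes 591 kept their sign and 3 changed it: Fgf22 (0.04) and Phlda1 (0.04) within description numbers 9 to 16 and Phlda1 (0.01) within title numbers 1 to 8. Correlations within genotype depended on the scaling. With arrays scaled to a common median, Spry3 with Spred1 (0.86), Spry3 with Dusp6 (0.86) and Spred1 with Dusp6 (0.87) passed. Under that scaling the sign changed for Spry3 with Spry4 (0.21), Etv4 (0.39) and Etv5 (0.53), Spry4 with Dusp6 (0.17), Spred1 with Etv4 (0.45) and Etv5 (0.58), Dusp6 with Etv4 (0.44) and Etv5 (0.53), and Etv4 with Etv5 (0.16). Spry3 with Spry4 was 0.00 with no background correction, with an offset of 50 and in the deposited normalized values, and Spred1 with Etv5 was 0.11 without HeCo 7 and HeCo 16. The cause of these changes was not tested. The correlation of Spred1 with oligodendrocyte precursor markers, whose alternatives were chosen after seeing the data, ran from 0.78 to 0.94 over other processing and single arrays left out, from 0.72 to 0.92 within runs of 8 arrays, and was 0.70 without HeCo 14 and wild type 4. No paired analysis was possible because the groups share no replicate number. Among the members, signals near background limit Spry2, Spry4, Spred2 and Spred3.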
